A study of Homo sapiens with 20 samples.

Results

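The regions described here are stretches of RNA that carried an N6-methyladenosine (m6A) peak in every one of 5 libraries of the cisplatin-resistant bladder cancer line T24R2 and in none of 5 libraries of the parental line T24. They were chosen by these calls: a region of the authors' merged list belonged if a peak of each of the 5 T24R2 lists overlapped it by at least 1 bp and no peak of the 5 T24 lists did. Of 43676 merged regions, 1320 met the rule (3.02%), and they are called T24R2-only regions below. Because presence in T24R2 and absence in T24 chose them, neither is a finding, and no test of either is given. The name describes calls. A peak that was not called in T24 can reflect less m6A, less of the transcript or less depth, and these cannot be told apart in peak lists.

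T24 is an established human bladder cancer line, labelled wild type, and T24R2 was derived from it by serial exposure to cisplatin and maintained in medium containing the drug, per the study's methods. Both were harvested at day 3 as total RNA, which was pulled down with an antibody against m6A (immunoprecipitation, IP) and sequenced beside an input without antibody. T24R2 is a single derived line, so a difference between the lines cannot be told apart from other changes that arose during its derivation. The replicates are numbered in the labels, which do not say whether they were separate cultures. Of 25 marker genes, most of them urothelial or epithelial but including the mesenchymal CDH2 and VIM, 10 had an exonic region in any library. Of these, 4 (KRT7, FOXA1, CD44 and CDH2) had a region in every library. CDH1, EPCAM, KRT5, KRT8, KRT19 and TP63 had no exonic region. KRT18 had one in 2 T24R2 libraries and no T24 library, and VIM in 5 T24 and 4 T24R2 libraries. The luminal factors GATA3 and ELF3 had a region in all 5 T24 libraries and none called in a T24R2 library. This pattern was not shared by FOXA1, with a region in every library, or by PPARG, with one in at most 1 library of each line. UPK1A, a uroplakin of the urothelial surface, had a region in at most 1 T24 and 2 T24R2 libraries.

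m6A is written on nascent RNA by the METTL3 and METTL14 complex, which prefers an adenosine inside the sequence class known as DRACH. In spliced messengers the mark gathers in long internal exons and around the stop codon, and it is recognised by YTH-domain readers that affect splicing, translation and decay. Antibody pull-down reports an interval of fragments around the mark rather than the base itself.

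The sequences below are the sense-strand windows around the median summit (the position of highest signal) of regions that the later results turn on, read from hg38 over 101 bases in coding exons. They show some of the strongest coding regions, a pair of windows in the gene with the most exonic regions, a channel gene, windows in short repeated exons and the weakest region. Each window shown holds a match to the class described next, and some regions without one are named below. Capitals mark the match to DRACH nearest to the summit, that is A, G or T, then A or G, then AC, then A, C or T, which makes 18 pentamers. A match is a description of the letters and not a mapped methylation site.
POU3F2, chr6:98835856-98835956, plus strand: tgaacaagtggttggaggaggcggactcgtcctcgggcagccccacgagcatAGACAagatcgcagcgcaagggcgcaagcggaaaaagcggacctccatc
ARHGAP25, chr2:68822719-68822819, plus strand: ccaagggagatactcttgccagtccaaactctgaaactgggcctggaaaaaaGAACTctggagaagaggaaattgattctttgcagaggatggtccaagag
NAP1L2, chrX:73213879-73213979, minus strand: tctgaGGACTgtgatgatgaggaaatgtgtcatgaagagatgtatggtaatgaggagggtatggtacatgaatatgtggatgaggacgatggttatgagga
BSN, chr3:49653358-49653458, plus strand: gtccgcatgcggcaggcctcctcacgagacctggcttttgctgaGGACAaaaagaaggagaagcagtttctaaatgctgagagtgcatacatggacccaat
BSN, chr3:49657233-49657333, plus strand: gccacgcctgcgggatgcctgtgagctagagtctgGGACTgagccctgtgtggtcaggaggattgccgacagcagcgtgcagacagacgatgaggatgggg
CACNA1A, chr19:13286600-13286700, minus strand: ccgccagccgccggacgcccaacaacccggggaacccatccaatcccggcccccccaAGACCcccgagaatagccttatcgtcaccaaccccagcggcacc
TNC, chr9:115078096-115078196, minus strand: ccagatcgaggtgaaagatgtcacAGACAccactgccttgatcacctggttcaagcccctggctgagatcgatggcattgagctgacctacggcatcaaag
CD163L1, chr12:7403760-7403860, minus strand: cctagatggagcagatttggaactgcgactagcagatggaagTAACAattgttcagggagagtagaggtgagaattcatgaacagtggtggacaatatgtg
CD163L1, chr12:7432476-7432576, minus strand: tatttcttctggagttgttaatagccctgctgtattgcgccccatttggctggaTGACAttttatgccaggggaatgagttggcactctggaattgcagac
MYH9, chr22:36289139-36289239, minus strand: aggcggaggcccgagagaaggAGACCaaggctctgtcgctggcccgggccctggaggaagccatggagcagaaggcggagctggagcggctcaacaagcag

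The DRACH class was present near most summits of exonic T24R2-only regions. Of 660 such regions in genes on 1 strand, 598 (90.6%, 95% Wilson interval 88.1 to 92.6) held a match within 50 nt of the summit on the sense strand and 72.0% held one on the antisense strand of the same window. The sense share was 89.2% over the 27100 exonic regions of the same kind in the whole series and 93.3% over those called in all 10 libraries. The motif GGAC, a common form of the class, was in the sense window of 50.3% of T24R2-only, 46.5% of all and 52.0% of shared regions, against 26.5% on the antisense strand of the T24R2-only ones. As the nearest match, GGACA was found in 72 T24R2-only regions (10.9%, against 8.48% of all), GGACC in 51 (7.73%, against 6.96%) and GGACT in 45 (6.82%, against 7.83%). The windows of the stronger CASZ1 coding region and of the CACNA1A region with the highest enrichment held no match to the class. The same was true of LDLRAD4 and of the T24R2-only regions in the BSN exon of 2077 nt and the IGFN1 exon of 7539 nt.

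The T24R2-only regions were spread over coding, noncoding, intronic and intergenic sequence. Of 1305 T24R2-only regions on the main chromosomes, 264 (20.2%, Wilson interval 18.1 to 22.5) had their summit in coding sequence (CDS), 216 (16.6%) in a 3′UTR, 37 (2.84%) in a 5′UTR and 180 (13.8%) in a noncoding exon. Introns held 353 (27.1%) and intergenic sequence 255 (19.5%, interval 17.5 to 21.8). Over all merged regions the shares were 32.3% in CDS, 16.3% in 3′UTRs, 5.76% in 5′UTRs, 11.3% in noncoding exons, 24.7% in introns and 9.72% in intergenic sequence. The 3′UTR share of T24R2-only regions was thus close to that of all regions, while the CDS share was lower and the intergenic share higher. When each list was cut to the same number of peaks, T24R2-only shares were 19.1% in CDS, 19.6% in 3′UTRs and 16.9% in intergenic sequence. No share over all regions is given for that setting. Over the regions called in all 10 libraries CDS held 48.1%, 3′UTRs 27.1%, introns 8.20% and intergenic sequence 2.698%. The intervals cover counting of regions only, and the shares are given without a test because the calls chose the regions.

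**Figure D1:**
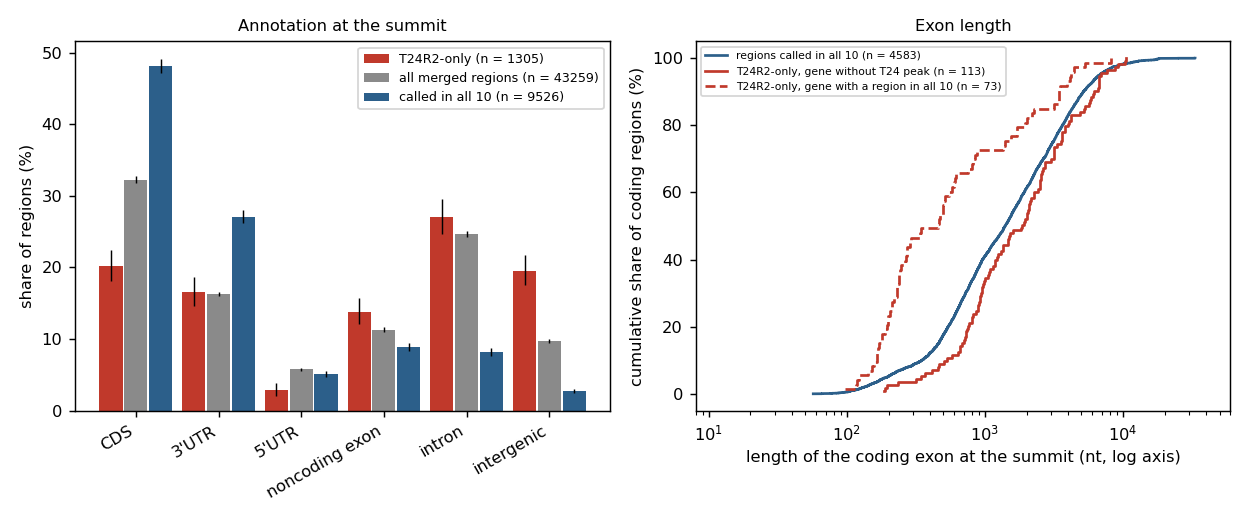
Left, the share of T24R2-only, all merged and shared regions in each annotation class at the summit (percent, bars from 0 with 95% Wilson intervals); right, the cumulative share of coding regions by the length of the exon at the summit (nt, log axis) for shared regions and for T24R2-only regions in genes without a T24 peak or with a region called in all 10 libraries. CDS held 20.2% of T24R2-only and 48.1% of shared regions, and the T24R2-only regions of genes with a shared region lay in shorter exons, with a median of 457 nt.

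For intergenic T24R2-only regions, the median distance to the nearest annotated gene was 4483 bp, and 178 of 255 lay within 10 kb. The farthest was 206082 bp from a gene. Of the 353 intronic regions, 154 lay in genes without any T24 peak and 92 in genes with an exonic region called in all 10 libraries. No matching values over all intergenic or intronic regions are given, so these are not read as traits of T24R2-only regions. The median width of T24R2-only regions was 442 bp, against 280 bp for all regions and 715 bp for those called in all 10 libraries. A merged region spans the peaks of every library that called it, so these widths depend in part on the number of calls. By chromosome, the T24R2-only share of regions ran from 2.12% (47 of 2222) on chromosome 11 to 4.34% (95 of 2188) on chromosome 5.

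Fold enrichment is the caller's ratio of IP signal to local background in the input, and to compare libraries it was turned into a percentile within each list. The median percentile of T24R2-only regions was 57.1, 52.2, 56.2, 58.2 and 65.4 in T24R2 replicates 1 to 5, so the regions sat slightly above the middle of each list. The highest of these values belonged to the library with the most peaks, replicate 5, with 33120. A stricter view is the lowest percentile that a region reached over the 5 lists. Its median was 28.9 for T24R2-only regions and 43.8 for regions called in all 10 libraries, and 16 T24R2-only regions stayed above the 90th percentile in all 5 lists while 33 fell below the 1st in at least 1. Just outside the rule, 1104 regions called in 4 T24R2 libraries and no T24 library had a median lowest percentile of 18.6 over the lists that held them. A further 682 regions called in 5 T24R2 libraries and 1 T24 library had a median of 21.4, and their single T24 peak stood at a median percentile of 32.4 in its own list.

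The number of regions that met the rule depended on the length of the lists. T24R2 lists held 22671 to 33120 peaks and T24 lists 17203 to 22901. The same rule with the lines exchanged gave 457 regions. When each list was cut to its 17203 peaks with the highest −log10 p, 555 regions were T24R2-only and 497 T24-only, so the first count fell and the second rose. Of the 555, 451 were among the 1320. For each gene named below for having 3 or more T24R2-only regions in exons, or 4 or more in all, the number that stayed T24R2-only with lists of equal length is given.

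In exons, 697 T24R2-only regions lay in 605 genes, which is 4.95% of the 12214 genes with any exonic region. Of the 605 genes, 462 were protein-coding and 117 were long noncoding RNAs (lncRNAs). At 573 of the 697 summits the exon belonged to the gene's canonical transcript, and 55 summits also lay in an exon of a further gene, which the lists cannot resolve because they carry no strand. A single such region was found in 535 genes, and 70 genes held 2 or more.

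The strongest exonic regions lay in POU3F2 and ARHGAP25. POU3F2, an intronless gene for a neural POU-domain transcription factor, had a CDS region with enrichment of 19.9, 25.8, 28.4, 23.04 and 29.5-fold in T24R2 replicates 1 to 5. ARHGAP25, a GTPase-activating protein of Rac, had 20.6, 29.8, 19.97, 26.5 and 22.5-fold. These 2 genes ranked highest by lowest percentile, at 98.7 and 98.9. All 20 of the strongest genes kept their region T24R2-only with lists of equal length and also with only peaks of −log10 q of at least 10 counted. Both settings keep the strongest peaks and can only remove T24 peaks, so this outcome was largely set by how the 20 were picked.

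Other transcription regulators among the strongest 20 were LMX1B, a LIM homeobox factor of limb and kidney development, KCTD15, an inhibitor of neural crest formation, and CASZ1, a zinc finger factor. The LMX1B 3′UTR region had 14.0, 20.1, 19.97, 22.3 and 15.8-fold enrichment. The KCTD15 3′UTR region had 18.1, 23.7, 14.5, 24.6 and 20.5-fold. For LMX1B and KCTD15 every library stood at or above 14-fold, while the CASZ1 CDS region was spread from 11.9 to 29.3-fold.

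Signalling and membrane proteins made up most of the rest. LDLRAD4, a membrane protein that restrains TGF-beta signalling, had a CDS region with 14.4, 28.3, 20.1, 27.2 and 28.3-fold enrichment, so replicate 1 was the lowest. KSR2, a scaffold of the RAF-MEK-ERK cascade, had a 3′UTR region with 16.7, 15.7, 18.4, 16.7 and 14.8-fold. PDE11A, which hydrolyses cAMP and cGMP, had a CDS region with 18.7, 14.8, 16.4, 20.8 and 20.3-fold. The values of KSR2 and PDE11A lay close together over the libraries. SELPLG, the selectin ligand of leukocytes, had a 3′UTR region with 12.5 to 17.8-fold. SLC9A9, an endosomal sodium/proton exchanger, had 11.2 to 20.8-fold, and HECW1, a HECT-type ubiquitin ligase, had the widest range of the 20, from 10.7 in replicate 3 to 36.2 in replicate 2.

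NAP1L2, an intronless histone chaperone gene of neurons on chromosome X, had a CDS region with 15.9, 17.6, 17.5, 21.8 and 17.0-fold enrichment, replicate 4 standing above the others. Noncoding RNAs among the strongest 20 were CT75, a cancer/testis lncRNA, with 12.9 to 16.6-fold, CEBPA-DT, the divergent transcript of the myeloid factor gene CEBPA, with 13.2 to 19.8-fold, ENSG00000268673 with 13.1 to 18.9-fold and ENSG00000276627 with 12.2 to 24.6-fold. FAM124A had a region with 12.2 to 22.1-fold. Of the 20 genes, 18 had no T24 peak elsewhere in the gene, against 54.1% of all 605 genes, and CASZ1 had 4 regions with one.

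Among the weakest exonic regions were those of MAP4K4 (a kinase of stress signalling), SMC1A (a cohesin subunit), HSP90AA1 (a chaperone) and MYH9 (the heavy chain of non-muscle myosin IIA), which are broadly expressed genes. The MYH9 region in a coding exon of 213 nt had 1.94, 2.56, 1.81, 1.80 and 1.71-fold enrichment. The HSP90AA1 region had 1.72, 2.86, 1.78, 2.11 and 1.92-fold. Replicate 2 was the highest library in both. The MYH9 region lay 183 bp from the nearest T24 peak, and the gene held 11 further regions with a T24 peak, so its membership concerned a small interval of a transcript detected in both lines. HSP90AA1 has processed copies elsewhere in the genome. Only unique alignments were kept, so reads matching a copy equally well were dropped, and the share lost to such copies was not tested.

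**Figure D2:**
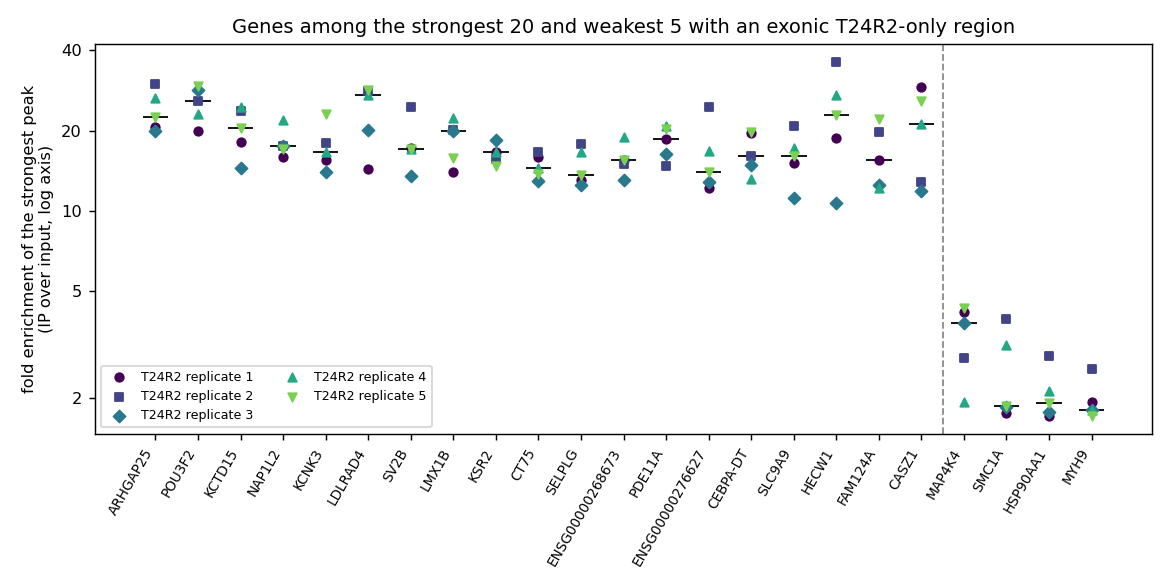
Fold enrichment of IP over input (log axis) of the strongest peak in each of the 5 T24R2 libraries (symbols) with the median (bar), for the described genes among the strongest 20 and the weakest 5 with an exonic T24R2-only region, which the dashed line separates. The genes left of the line lie above 10-fold in every library, and MYH9 lies between 1.71 and 2.56-fold.

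Several regions in 1 gene were rare: 13 genes held 3 or more exonic T24R2-only regions, and 15 held 4 or more when introns were counted. BSN, which encodes the presynaptic scaffold bassoon, held the most in exons, with 7 CDS regions and no T24 peak anywhere in the gene. They lay in the exon of 885 nt (1 region), the exon of 6654 nt (4 regions) and the exon of 2077 nt (2 regions). The region at chr3:49651724-49652794 had 14.0, 12.6, 12.5, 14.4 and 12.9-fold enrichment, and the region at chr3:49656508-49657681 had 19.5, 17.0, 9.98, 10.4 and 15.8-fold. All 7 stayed T24R2-only with lists of equal length. Their lowest percentiles ran from 49.3 to 83.4, so none was at the weak end of a list.

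TNC, the matrix glycoprotein tenascin C, showed another arrangement. Its exon of 1410 nt held a region called in all 10 libraries, and 5 T24R2-only regions lay in the coding exons around it, of 593, 264, 270, 273 and 1693 nt. The strongest of the 5, at chr9:115084254-115084610, had 4.63, 7.41, 5.38, 7.60 and 7.36-fold enrichment, and the others had 2.28 to 7.40-fold. The shared region had 8.90, 6.93, 4.69, 5.79 and 5.81-fold in T24 replicates 1 to 5 and 8.86, 10.8, 8.91, 12.1 and 8.72-fold in T24R2. Its log2 difference of 0.55 (SE 0.26) did not pass the test (limma adjusted p = 0.341). With lists of equal length, 1 of the 5 TNC regions stayed T24R2-only.

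CASZ1 had its 3 T24R2-only regions side by side in the last exon of 3456 nt, 2 in CDS and 1 in the 3′UTR, while its exon of 842 nt held a region called in all 10 libraries. The middle region at chr1:10638989-10639434 had 29.3, 12.8, 11.9, 21.1 and 25.8-fold enrichment, and the CDS region next to it, where an exon of ENSG00000272078 also lies, had 8.86, 7.49, 4.99, 5.12 and 4.604-fold. The shared CASZ1 region had a log2 difference of 0.30 (SE 0.31) between the lines (limma adjusted p = 0.728). CASZ1 therefore combined a shared region in one coding exon with T24R2-only calls in another. Of its 3 regions, 2 stayed T24R2-only with lists of equal length.

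CD163L1, a scavenger receptor, had its 3 T24R2-only regions in 3 different exons that are each 321 nt long, part of a row of repeated exons for scavenger receptor domains. Another exon of 321 nt held a region called in 5 T24R2 and 2 T24 libraries. Of the 3 CD163L1 regions, 1 stayed T24R2-only with lists of equal length. CENPE, the mitotic kinesin of the kinetochore, had regions in exons of 219, 288 and 273 nt among 16 regions with a T24 peak, and none of its 3 stayed T24R2-only with lists of equal length. In CENPE the 3 regions had 2.43 to 8.90-fold enrichment.

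**Figure D3:**
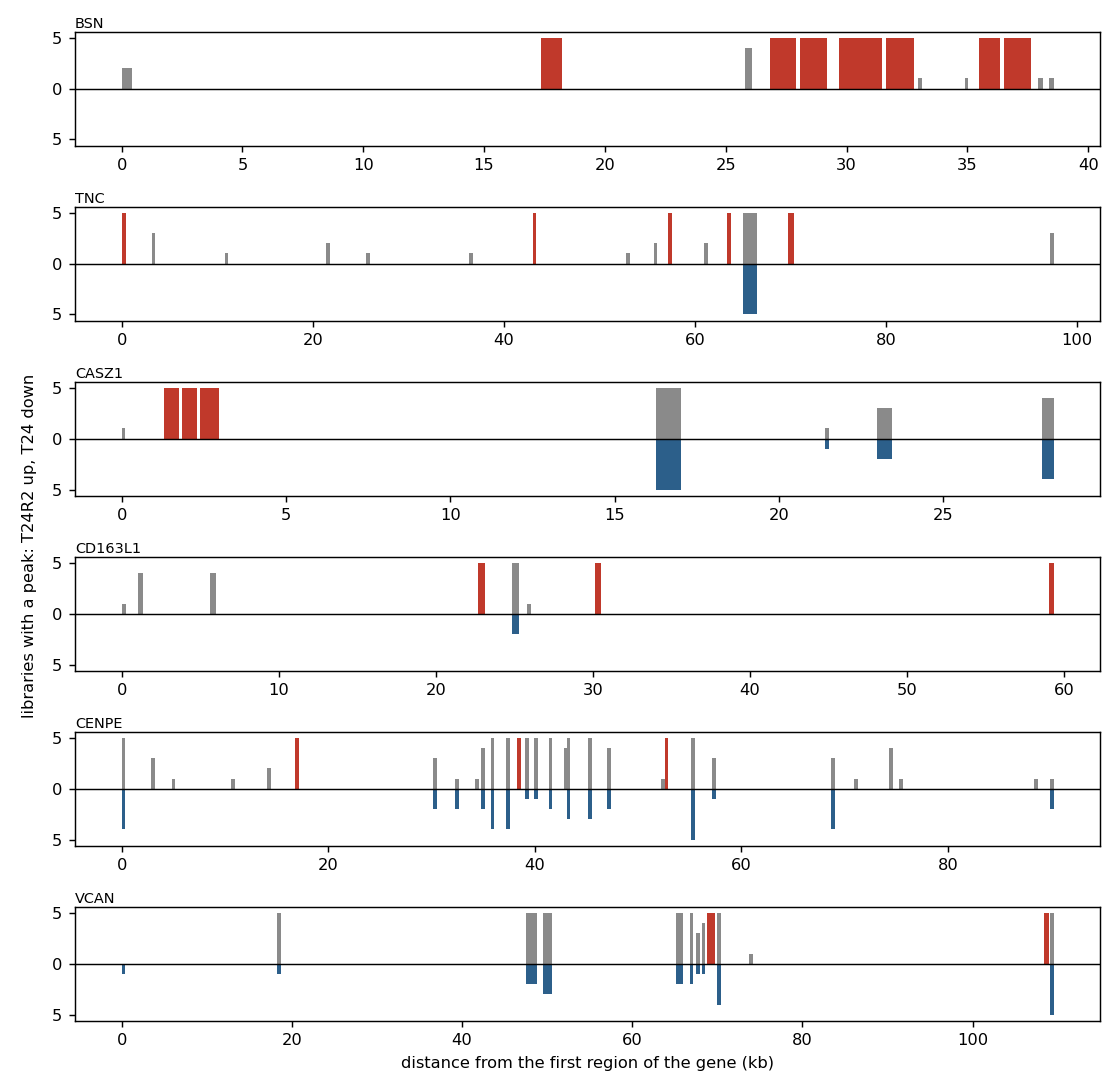
Number of libraries with a peak in each merged region of 6 genes, T24R2 upward and T24 downward, against the distance from the gene's first region in genome order (kb); T24R2-only regions are red, other T24R2 calls grey, T24 calls blue, and very narrow regions are drawn at a minimum width. BSN has 7 red regions and no blue one, TNC has 5 red regions around a region called in all 10 libraries, and CENPE has 3 red regions among 16 with a T24 peak.

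Among the other genes with several regions, SV2B, a synaptic vesicle glycoprotein, had a 5′UTR region with 17.2, 24.5, 13.5, 17.1 and 17.0-fold enrichment and 2 regions in its 3′UTR, and it had no other region of any kind. TENM2, a teneurin adhesion protein, had 3 CDS regions, of which the one at chr5:168247962-168248364 had 10.6, 11.9, 11.2, 27.1 and 10.6-fold, so that replicate 4 stood alone. IGFN1 had 3 CDS regions and a 3′UTR region, with 2.12 to 14.4-fold enrichment. KNDC1 had a CDS region and 2 regions in the 3′UTR of a shorter, non-canonical transcript. FBXW10B had 4 regions within the 3′UTR of its last exon of 5342 nt, with 4.98 to 16.3-fold. The gene has near-identical paralogues, and reads matching several copies equally well were dropped. The processed pseudogene ENSG00000230882 had 3 regions in its exon of 3495 nt, with 2.57 to 16.9-fold, and reads matching its parent gene equally well were dropped. With lists of equal length, the regions that stayed T24R2-only were 2 of 3 in SV2B, 1 of 4 in TENM2 (an intronic one counted), 2 of 4 in IGFN1, 1 of 3 in KNDC1, 2 of 4 in FBXW10B and 1 of 3 in ENSG00000230882.

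In genes with mostly intronic T24R2-only regions, PCSK6, a proprotein convertase that processes growth factors, had 6, of which the intronic one at chr15:101491158-101492884 had 16.2, 20.1, 14.0, 15.7 and 17.0-fold enrichment. FARP1, a FERM-domain protein, had 5 intronic regions and no T24 peak, with 4.62 to 19.1-fold. ADARB2, an RNA-binding member of the adenosine deaminase family, had 4 intronic regions that also lay in the body of LINC00200, with 5.82 to 18.6-fold. SORCS2 and BRINP1, both genes of neurons, had 3 intronic regions and 1 exonic region each and no T24 peak. APPAT, a lncRNA, had 4 regions, 2 of them in exons, with 2.84 to 11.9-fold. With lists of equal length, 4 of 6 regions stayed T24R2-only in PCSK6, 2 of 5 in FARP1, 2 of 4 in ADARB2, 3 of 4 in SORCS2, 3 of 4 in BRINP1 and 1 of 4 in APPAT.

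In 155 genes with an exonic T24R2-only region, every region of the gene was T24R2-only, and in 142 of them it was the gene's single region. LINC00943 had 4 such regions and SV2B had 3, and ARHGAP25 and ATP6V0E2-AS1 were among the genes with 2. The strongest LINC00943 region had 12.9, 17.8, 9.97, 13.4 and 16.4-fold enrichment, and the 2 regions of ATP6V0E2-AS1 had 5.87 to 10.1-fold. In LINC00943, 1 of the 4 stayed T24R2-only with lists of equal length.

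The 605 genes were set against 34 lists of gene families and functions, read beside the 4.95% of all measured genes. Potassium, calcium and sodium channels held 11 genes of 49 with an exonic region (22.4%), the highest share among the lists with 10 or more measured genes. The list of WNT ligands and receptors, which also includes the WNT feedback inhibitor AXIN2, held 3 of 22 (WNT9A, WNT5A and AXIN2). Matrix glycoproteins and proteoglycans held 2 of 17 (TNC and VCAN). In 10 lists no gene had an exonic T24R2-only region, among them 46 DNA repair genes, 22 m6A writers, readers and erasers, 21 ABC transporters and 53 forkhead, SOX, GATA and KLF factors. Counts of 0 in lists as short as these do not separate them from the share over all genes, and no list was tested.

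The 11 channel genes fell into several families. KCNK3, KCNK2 and KCNK10 encode leak channels of the K2P type that hold the resting potential. The KCNK3 3′UTR region had 15.5, 17.99, 14.0, 16.6 and 23.2-fold enrichment, and a 5′UTR region of the same gene had 8.61, 7.36, 9.76, 15.6 and 16.1-fold. KCNK10 had a CDS region with 10.6, 9.91, 7.37, 13.6 and 7.04-fold, and KCNK2 a CDS region with 10.6, 9.72, 5.34, 9.41 and 8.72-fold. All KCNK values exceeded 5-fold, and KCNK3 was the strongest of the 3 in every library.

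Voltage-gated channels made up most of the others. CACNA1A, the pore-forming subunit of P/Q-type calcium channels, had a CDS region in its exon of 810 nt with 16.8, 12.6, 12.9, 21.1 and 12.3-fold enrichment, a CDS region in its exon of 464 nt with 7.37 to 11.1-fold, and a 3′UTR region whose lowest percentile was 9.07. Of these 3, 2 stayed T24R2-only with lists of equal length. KCNQ3, a subunit of the M-current channel, had a CDS region with 21.4, 12.8, 15.0, 9.96 and 19.3-fold. The sodium channel SCN8A had a CDS region with 11.5, 20.5, 23.8, 6.497 and 15.1-fold, and SCN2A a 3′UTR region with 9.75, 8.32, 11.1, 10.2 and 11.1-fold. SCN8A thus varied more between libraries than SCN2A did. KCNC4, KCNH1, KCNG2 and KCNIP3, which interacts with voltage-gated potassium channels, completed the list. Of the 11 genes, 9 had no T24 peak in any region, against 54.1% of all 605 genes, and 7 kept an exonic T24R2-only region with lists of equal length. No matching share of genes is given for the last count. By region, 42.4% of exonic T24R2-only regions in all genes without a T24 peak stayed so.

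**Figure D4:**
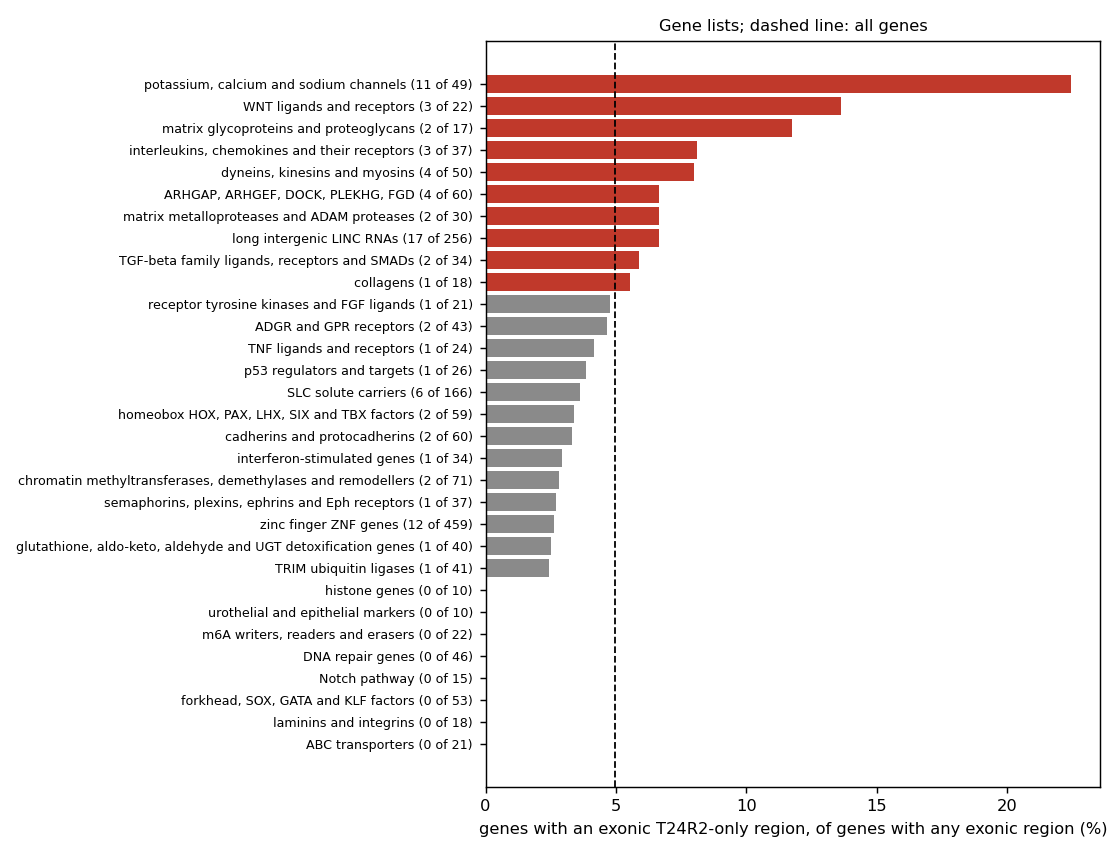
Share of genes with an exonic T24R2-only region among the genes of each list that had any exonic region (percent, bars from 0; counts in brackets), for lists with 10 or more such genes; the dashed line is the share over all genes, 4.95%, and lists above it are red. The channel list stands at 22.4% (11 of 49), and lists without such a gene have no bar.

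Other lists held few genes each. The ARHGAP, ARHGEF, DOCK, PLEKHG and FGD families of small GTPase regulators held 4 of 60 (ARHGAP25, ARHGAP20, DOCK3 and ARHGEF18), of which ARHGEF18 was weak, with 2.79 to 3.87-fold enrichment. Dyneins, kinesins and myosins held 4 of 50 (MYO15A, MYO18A, MYO1E and MYO1C), and the MYO1C 3′UTR region had 2.30 to 3.94-fold. Solute carriers held 6 of 166 (3.61%), 3 of them sodium/proton exchangers: SLC9A9, SLC9A2 with 11.2 to 23.8-fold, and SLC9A8 with 5.24 to 7.81-fold. ZNF zinc finger genes held 12 of 459 (2.61%), and long intergenic LINC RNAs held 17 of 256 (6.64%). Of these LINC RNAs, 15 had no T24 peak, against 54.1% of all 605 genes, most of which were protein-coding. Over lncRNA genes of every kind, 102 exonic T24R2-only regions lay in genes without a T24 peak. A further 10 lay in lncRNA genes with an exonic region called in all 10 libraries, and 17 in other lncRNA genes. WNT9A, a WNT ligand, had a CDS region with 11.8, 17.3, 9.95, 12.6 and 10.4-fold, and AXIN2, a feedback inhibitor of WNT signalling, a CDS region with 6.24 to 11.2-fold. PML, which organises nuclear bodies, was the single gene in the interferon-stimulated, p53 and TRIM lists, with 2.86 to 6.54-fold, and it counts in all 3.

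Some T24R2-only regions lay close together along the genome. Chains in which neighbours lay at most 50 kb apart and which held at least 4 T24R2-only regions numbered 31 and contained 153 of the 1320 (11.6%). Inside them, 23 of 287 merged regions had a T24 peak, 19 chains had none, and 4 held a region called in all 10 libraries. The 153 lack a T24 peak by the rule, so these counts follow in part from how the chains were built. No matching share over other regions is given, and the chains are a description of position. Clustered regions can share a transcript and are not independent of each other.

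The longest chain, chr5:98115586-98267003, spanned 151 kb with 14 T24R2-only regions among 22 regions and no T24 peak. Of the 14, 8 lay in introns of LINC01846 and 6 in intergenic sequence, none in an annotated exon, and the nearest protein-coding genes were RIOK2 at 932338 bp and RGMB at 501646 bp. Its strongest region, at chr5:98265954-98266551, had 11.2, 16.4, 10.6, 17.9 and 12.8-fold enrichment, and all 5 libraries stood above 10-fold. With lists of equal length 4 of the 8 LINC01846 regions stayed T24R2-only. A further chain of 5 T24R2-only regions at chr5:98338768-98425553 lay in the same interval between RIOK2 and RGMB.

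On chromosome 10, 6 of 6 merged regions between 5088401 and 5116764 were T24R2-only. The first lay in an intron of AKR1C3, an aldo-keto reductase of steroid and prostaglandin metabolism, and the other 5 in intergenic sequence between AKR1C3 and AKR1C8. The region at chr10:5114664-5115238 had 22.4, 15.8, 16.6, 15.5 and 21.7-fold enrichment, while the AKR1C3 intron had 4.07, 7.52, 5.53, 4.48 and 6.35-fold. The nearest T24 peak was 276493 bp away, and no region of AKR1C3 had one. The intergenic region was thus stronger than the intronic one in every library.

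The chain at ANO9, a member of the anoctamin family of membrane scramblases, held 7 T24R2-only regions among 15, 5 of them in ANO9 introns. The intronic region at chr11:433219-435071 had 9.69, 10.2, 9.57, 17.8 and 13.6-fold enrichment. Next to it, the region at chr11:432577-432932 had a peak in every T24 library and in none of T24R2, the single region of this chain with a T24 peak. ANO9 thus had neighbouring regions called in opposite lines, and 3 of its 5 T24R2-only regions stayed so with lists of equal length. On chromosome 2, the chain at 403386 to 424690 held 6 T24R2-only regions among 14, 3 in introns of the lncRNA ENSG00000236856, where the region at chr2:404448-405140 had 17.0, 19.4, 21.6, 14.4 and 19.0-fold, and 3 in intergenic sequence. The remaining chains among the 6 with the most regions were those of BSN, with 7 of 10, and IGFN1, with 5 of 10.

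**Figure D5:**
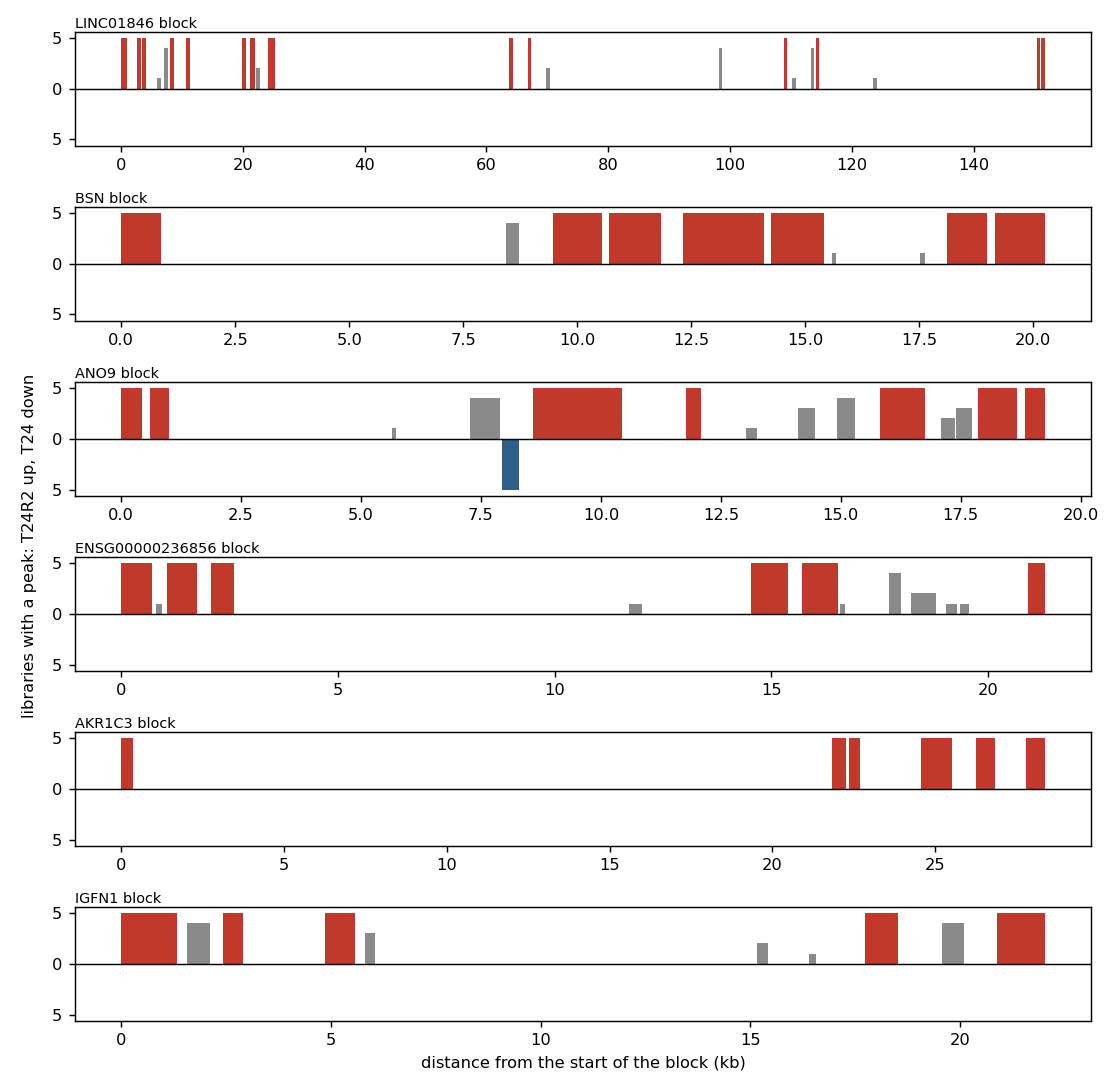
Number of libraries with a peak in each merged region of the 6 chains with the most T24R2-only regions, T24R2 upward and T24 downward, against the distance from the start of the chain (kb); T24R2-only regions are red, other T24R2 calls grey, T24 calls blue, and very narrow regions are drawn at a minimum width. The chain at LINC01846 spans 151 kb, and the ANO9 chain is the one of the 6 with a T24 bar.

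The host genes of exonic T24R2-only regions were divided by what else was called in them. No T24 peak fell in any region of 327 of the 605 genes (54.1%), 131 (21.7%) had another exonic region called in all 10 libraries, and 147 (24.3%) lay between. Whether the 327 genes were transcribed in T24 was not tested, as the input libraries enter the lists only as background. The 131 genes were detected in both lines by the same assay.

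The strength of the regions and the exons they lay in were then described by group. The strength comes from the calls that chose the regions. The groups were also formed by calls, and a region called in all 10 libraries cannot be a T24R2-only one. The exon lengths by group are therefore not independent of the calls either. In the 327 genes without a T24 peak, the median lowest percentile was 35.0, 42.4% of exonic regions stayed T24R2-only with lists of equal length, and the coding exon at the summit had a median length of 1853 nt, with 93.8% of 113 such regions in exons of at least 400 nt. In the 131 genes with a shared region, the corresponding values were 11.4, 23.6%, 457 nt and 50.7% of 73. In the 147 genes between, they were 18.4, 24.3%, 761.5 nt and 71.8% of 78. The median coding exon was 1402 nt over regions called in all 10 libraries, 87.8% of which lay in exons of at least 400 nt, and 570 nt with 57.9% over all merged regions. CENPE and 3 of the 5 TNC regions, described above, are examples of T24R2-only calls in short coding exons of genes with a shared region, and BSN and POU3F2 of calls in long exons of genes without a T24 peak. CASZ1 and VCAN go the other way, with a shared region and T24R2-only coding regions in exons of 3456 and 5262 nt. These are descriptions of called regions, which share libraries and genes.

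In the genes with a shared region, the lines could be compared with replicates at the shared region itself, which the rule did not choose. Across 9577 regions called in all 10 libraries, limma on median-centred log2 fold enrichment called 51 higher in T24R2 (0.533%) and 31 lower (0.324%) at an adjusted p under 0.05. Without centring, which moved the median difference over these regions from 0.02 to 0.11, 60 were called higher and 17 lower. Of the 9577, 215 regions lay in exons of the 131 host genes. None of the 215 was called higher and 2 were called lower (0.930%), and 26 (12.1%) had an unadjusted p under 0.05, against 14.1% of all 9577. The median log2 difference, T24R2 minus T24, was 0.04 over the 215 regions and 0.02 over all.

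The first of the 2 was in VCAN, the matrix proteoglycan versican. Its 3′UTR region at chr5:83580880-83581300 had 22.1, 16.7, 20.6, 13.4 and 15.8-fold enrichment in T24 replicates 1 to 5 and 9.58, 7.58, 6.29, 7.76 and 9.18-fold in T24R2. The groups did not overlap, and the centred log2 difference was −1.22 (SE 0.24, limma adjusted p = 0.0121), lower in T24R2. VCAN also had 2 T24R2-only regions, a CDS one in its exon of 5262 nt with 3.76, 5.00, 4.20, 3.09 and 4.88-fold and a 3′UTR one at chr5:83580225-83580722 with 2.40, 4.15, 3.62, 4.52 and 4.04-fold, 281 bp from the nearest T24 peak. In the same 3′UTR, a region with lower enrichment in T24R2 therefore stood beside a weak region called in T24R2 alone.

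The second was in APCDD1L-DT, a divergent lncRNA. Its region at chr20:58515471-58516115 had 9.71, 35.6, 15.3, 10.9 and 8.36-fold enrichment in T24 and 7.18, 5.22, 4.46, 6.62 and 3.78-fold in T24R2, with a log2 difference of −1.47 (SE 0.35, limma adjusted p = 0.0432). The groups did not overlap, but T24 replicate 2 stood far above the rest, and without it the difference was −1.08 and the call was lost (adjusted p = 0.114). The call was also lost when each of 7 other libraries was left out in turn, with differences of −1.61 to −1.32. A T24R2-only region in another exon of the same lncRNA had 10.7, 10.3, 15.1, 16.4 and 15.6-fold, and a second shared region of it had a log2 difference of 0.24 (SE 0.25, adjusted p = 0.745).

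The next 8 shared regions by p did not pass. TMEM79 and NKX2-5, the cardiac homeobox factor, had log2 differences of 0.93 (limma adjusted p = 0.0634) and 0.98 (adjusted p = 0.0695). PCLO, the presynaptic scaffold piccolo and a relative of BSN, had 0.83 (adjusted p = 0.105) and carried a CDS and a 3′UTR region that were T24R2-only. SH3PXD2A, a scaffold of invadopodia, had −0.86 (adjusted p = 0.125). JADE2, a chromatin reader, had 3 of the 8, with −0.86, −0.83 and −0.90 (adjusted p = 0.125, 0.131 and 0.134). IQCE had 0.87 (adjusted p = 0.140).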

How the data were processed

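MeRIP-seq of T24 and T24R2 was analysed from the 10 IP peak lists (5 per line); 10 input libraries enter them only as background. Reads were aligned to hg38 with STAR 2.7.0 and GENCODE v39, filtered with SAMtools 1.10 for unique, non-duplicate alignments, and peaks were called for each library with MACS2 3.0.0a6, per the submitters' processing notes and the study's methods. Each deposited row gives the caller's score, a fold enrichment (a ratio of IP over local input), a −log10 p-value and a −log10 q-value, all computed by the authors. The lists hold no read counts and no strand, so depth is unknown and no interval rests on it. The authors' merged list was checked to equal the merge of the 10 lists.

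The region's value in a library was its strongest peak. Classes and genes were taken at the median summit of the region from GENCODE 44, exons before introns and CDS before 3′UTR, 5′UTR and noncoding exons. Regions called in all 10 libraries were compared with limma 3.58.1 in R 4.3.3 (median-centred log2, trend, Benjamini-Hochberg over 9577 regions), tested on simulated data. The p-values measure the spread between these libraries, which may be technical. Same-numbered libraries did not deviate together (correlations −0.0419 to 0.121) and were not paired.

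The regions, genes and lists were chosen with earlier results of these data known. Named genes were those with 3 or more exonic or 4 or more T24R2-only regions in all, the strongest 20 and weakest 5 by lowest percentile, genes at the 6 largest chains, up to 4 genes per list, the 10 shared regions of host genes with the smallest adjusted p and up to 4 genes with T24R2-only regions alone; some are not reported here. Alternatives were peak thresholds, equal list lengths, overlap, looser calls, motif windows, chain gaps, limma settings and leaving out each library.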

Additional observations from a re-analysis of the deposited data

Results flagged for a closer look

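Dixon's ratio (critical value 0.71) was used to look for a library far from the other 4 in 203 groups of 5 libraries: 4 summaries of the T24R2 lists, the T24R2-only regions chosen by the rule for named genes, and the 10 shared regions of host genes in each line. It marked 16, and chance marks about 1 group in 20. In exons, T24R2 replicate 2 was the high library in the regions of MYH9 (2.56-fold enrichment against 1.71 to 1.94-fold in the others), the IGFN1 3′UTR (11.8 against 5.87 to 6.88-fold), SLC41A1 (14.3 against 5.40 to 7.81-fold), LINC00607 (20.9 against 7.23 to 9.70-fold) and the first TNC region in genome order (3.84 against 2.28 to 2.73-fold). Replicate 4 was high in NAP1L2 (21.8 against 15.9 to 17.6-fold), the TENM2 CDS region described above (27.1 against 10.6 to 11.9-fold) and an ANO9 intron (16.8 against 6.64 to 7.86-fold), and low in a 3′UTR region of FBXW10B (4.98 against 10.4 to 12.2-fold). Replicate 5 was high in the last TNC region (7.40 against 3.07 to 4.27-fold), and replicate 1 in KDM5C (3.38 against 2.12 to 2.37-fold). In the chain at LINC01846, replicate 3 was low in an intronic region (8.74 against 11.3 to 12.1-fold), and replicate 5 was high in the intergenic region starting at chr5:98229664 (12.3 against 7.11 to 7.81-fold) and low in the one starting at chr5:98266673 (4.69 against 7.87 to 8.10-fold). In T24 the shared APCDD1L-DT region had 35.6-fold in replicate 2 against 8.36 to 15.3-fold, and the shared IQCE region 14.9-fold in replicate 4 against 4.604 to 6.79-fold. Their causes were not tested.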

How the results depend on the processing

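The count of T24R2-only regions depended on the calling threshold. It was 1320 as reported, 640 with −log10 q of at least 10, 555 with lists of equal length and 3653 when 4 of 5 T24R2 and at most 1 of 5 T24 libraries were required, and it stayed within 1.5 times the reported count at −log10 q of at least 5 (1014), fold enrichment of at least 4 (1113) and 50% cover (983). At 50% cover, 381 of the 983 regions were among the 1320. At −log10 q of at least 10, 277 of the 640 were, and at −log10 q of at least 5, 800 of the 1014 were. The stricter sets are therefore not subsets of the 1320, because a threshold also removes T24 peaks. Leaving out 1 library gave 1360 to 1676. Chains numbered 23 with a gap of 20 kb and 41 with 100 kb. Putting 3′UTR before CDS gave 15.7% CDS and 21.1% 3′UTR. With lists of equal length, the 3′UTR share was 19.6% and the intergenic share 16.9%. In that setting 281 genes held an exonic T24R2-only region, and 24 held 2 or more. The limma calls over shared regions were 82 in all and ranged from 34 (without T24R2 replicate 4) to 79 when 1 library was left out; they fell to 39 without T24 replicate 3, 47 without T24R2 replicate 1, 41 without T24R2 replicate 2 and 51 without T24R2 replicate 5, each a fit with fewer samples. The calls in host genes were 1 to 2. VCAN passed in all 16 alternatives (adjusted p 0.0116 to 0.0464), and APCDD1L-DT in 8 of 16 (0.0357 to 0.114), losing its call without T24 replicates 2, 3 and 4 and without each T24R2 replicate. With the replicate block, 65 regions were called in all and 2 in host genes, VCAN and APCDD1L-DT (adjusted p = 0.0250 and 0.0481); the libraries share only a number. Unknown depth limits every statement about a peak that was not called.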
